A study of Mus musculus with 6 samples.

Results

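DP42 cells are a murine line of multiple myeloma, a cancer of antibody-secreting plasma cells. The comparison described here is of DP42 cells that spent 24 h with mouse neutrophils against DP42 cells grown without a partner cell for the same time. Each group was read on 2 Affymetrix arrays, and 2 further arrays of DP42 cells grown with mouse B cells entered the same fit. The labels write the partner of the first group as neutrophils (IMC) and elsewhere as myeloid cells, and IMC is not spelled out. No genotype, strain, drug or animal age is given for any group. Co-cultured populations were separated by flow sorting before lysis, and cells grown alone had no partner to be sorted from. All genes read by a probe set with exactly 1 gene symbol were considered, with the brightest probe set kept for each gene. Of these 22180 genes, 19528 were members of the comparison. The 2652 left out were olfactory and vomeronasal receptors and the other symbols beginning Olfr, Vmn1r, Vmn2r, Speer, Krtap or Gm with digits. The labels do not state that the replicates of a group were separate cultures, and a p-value here reflects array-to-array spread that could be purely technical.

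Type I interferons are secreted proteins that most cells make after sensing foreign or misplaced nucleic acid. They bind a receptor of the subunits Ifnar1 and Ifnar2, and the kinases on it phosphorylate STAT2. With IRF9, STAT2 is part of the complex ISGF3, which binds a short DNA element, the interferon-stimulated response element (ISRE), near the genes it induces. The induced genes include sensors of RNA and DNA, the oligoadenylate synthetases that switch on the nuclease RNase L, proteins that block viral growth, and feedback inhibitors such as Usp18. Neutrophils are short-lived phagocytes whose granules hold proteases and iron-binding or antimicrobial proteins, many of them transcribed only while the cell matures in the marrow.

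The values below are log2 levels, and each difference is the mean of the neutrophil arrays minus the mean of the alone arrays, so 1 unit is a 2-fold change. A gene is said to have risen or fallen when its adjusted p in limma was below 0.05, with adjustment over all 22180 genes. Of the 19528 genes 119 passed (0.609%), of which 29 rose (0.149%) and 90 fell (0.461%). The 29 genes that rose included 14 members of the interferon lists, 5 neutrophil granule genes and Ly6c2. Genes that rose by at least 2-fold numbered 7, and genes that fell by at least that much numbered 28. Under quantile normalisation the split turned, with 11 genes higher and 8 lower. The call was also narrow when adjustment ran over the 19528 genes alone, where 7 genes rose (Ly6c2, Ngp, Ifi27, Irf9, Usp18, Oas2 and Cmpk2) and 1 fell (Mir3475). The other genes that rose or fell passed only with the 2652 left-out genes in the adjustment, of which 212 were called lower. Their adjusted p-values in limma below 0.05 therefore do not hold within the 19528. The counts rested on the arrays used: 2 rose and 0 fell without alone array 1, 3 and 0 without alone array 2, 9 and 25 without neutrophil array 1, 5 and 0 without neutrophil array 2, and 211 and 545 when 1 or both B-cell arrays were left out. At an unadjusted p below 0.05, 6.49% of the 19528 genes were higher and 7.88% lower, and 22.7% had both neutrophil arrays below both alone arrays.

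The difference depended on how bright a gene was. The 19528 genes were ordered by their mean over 6 arrays and divided into 4 classes of equal size. In the dimmest class the median difference was -0.10, and 28.3% of genes were positive. In the brightest class it was 0.13, and 91.9% were positive. Over all 19528 genes the median was 0.04 and 59.3% were positive, so the medians of gene groups below are given against these values. The genes left out of the comparison, which are mostly dim, had a median of -0.23, with 212 called lower and 0 higher. Of the genes that fell, 61 lay in the dimmest class and 1 in the brightest. The genes that rose were spread over the 3 dimmer classes, with 10, 7 and 11, and 1 lay in the brightest.

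**Figure D1:**
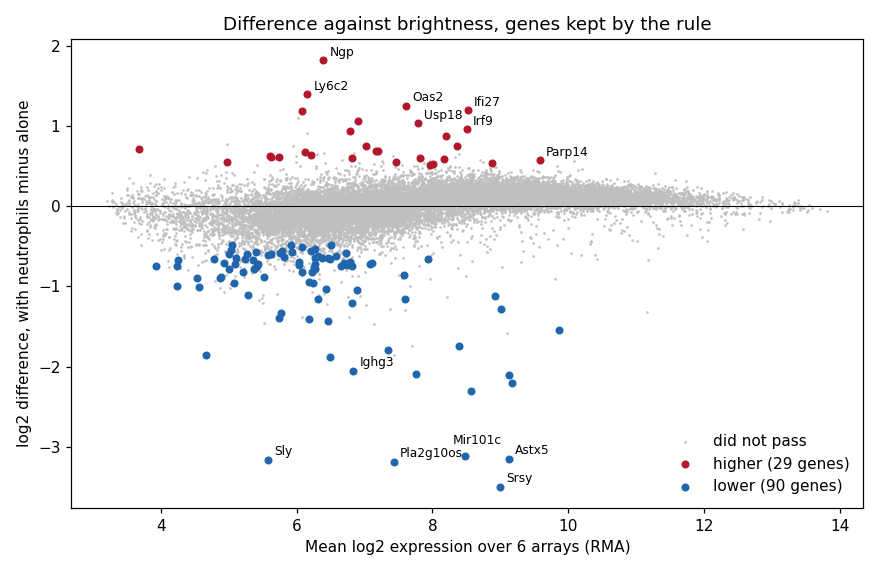
Log2 difference between DP42 cells with neutrophils and alone (vertical axis) against the mean log2 level over 6 arrays (horizontal axis), 1 point per gene, with the genes that rose and fell marked. The cloud tilts from a median of -0.10 in the dimmest class to 0.13 in the brightest, and most genes that fell are dim.

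Within type I interferon signalling, a subunit of the transcription factor and a feedback inhibitor rose, and no interferon gene did. Irf9, the DNA-binding subunit of ISGF3, stood at 8.19 and 8.15 alone and at 9.15 and 9.12 with neutrophils. Usp18, which removes ISG15 from proteins and damps signalling at the receptor, stood at 7.33 and 7.47 alone against 8.42 and 8.45. Each gene's neutrophil arrays lay close together and well above its alone arrays. The differences were 0.96 (SE 0.09, adjusted p = 0.00801) for Irf9 and 1.03 (SE 0.10, adjusted p = 0.00862) for Usp18. With B cells Irf9 stood at 8.19 and 8.25 and Usp18 at 7.58 and 7.45, nearer to the alone arrays. These were the 2 members that rose of 12 measured in the receptor and signalling list, of which 11 were positive and the median was 0.15. When the fit also took up each array's mean over the 1394 olfactory and vomeronasal receptors (the receptor covariate), 4 of the 12 were positive and the median turned to -0.04. That mean was itself lower on both neutrophil arrays than on both alone arrays, so this fit can hardly separate it from the comparison. Stat2 stood at 9.14 and 9.13 alone and at 9.24 and 9.35 with neutrophils, a difference of 0.16 that did not pass (adjusted p = 0.405). The receptor subunits Ifnar1 and Ifnar2 each differed by 0.13 and did not pass (adjusted p = 0.521 and 0.471). The inhibitor Socs1 differed by 0.27 and the transcription factor Irf7 by 0.16, neither of which passed.

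No interferon gene passed the test. Of 17 measured interferon genes of types I, II and III, 3 were positive, the median was -0.11 and none passed, with 1 higher and 3 lower at an unadjusted p below 0.05. The highest was Ifnab, at 5.82 and 5.89 alone and 6.23 and 6.18 with neutrophils (0.35, adjusted p = 0.137), and 1 gene of the list was called higher when 1 or both B-cell arrays were left out. Ifnb1, the interferon made first by many cell types, stood at 5.51 and 5.76 alone and at 5.59 and 5.59 with neutrophils, so the groups overlapped. All 4 of these Ifnb1 values lay below the lower quartile of genes on the arrays, which ran from 6.20 to 6.41, where a real change would be compressed.

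The oligoadenylate synthetases held the largest share of risers. Of 11 family members measured 4 rose, 9 were positive and the median was 0.23. On the alone arrays Oas2 stood at 7.24 and 7.03, on the B-cell arrays at 7.26 and 7.35, and on the neutrophil arrays at 8.52 and 8.25. Only the neutrophil arrays were high, and the difference was 1.25 (SE 0.12, adjusted p = 0.00862). Oas1b differed by 0.53 (7.76 and 7.85 alone, 8.37 and 8.29 with neutrophils; adjusted p = 0.0485). The related Oasl1 and Oasl2, which bind RNA but belong to the OAS-like branch, differed by 0.61 and 0.67 (adjusted p = 0.0348 and 0.0281). Oasl2 was dim, at 5.83 and 5.95 alone, so its fold is not exact.

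Sensors of nucleic acid rose in part. Of 20 measured 3 rose, 1 fell, 16 were positive and the median was 0.28. Ddx58, which encodes the RNA sensor RIG-I, stood at 7.94 ± 0.10 alone and 8.53 ± 0.06 with neutrophils (mean ± SD, n = 2), a difference of 0.59 (adjusted p = 0.0381). Its relative Dhx58 (LGP2) stood at 7.84 and 7.78 alone and at 8.33 and 8.32 with neutrophils, a difference of 0.51 (adjusted p = 0.0404). For both sensors the groups did not overlap, and the B-cell arrays (8.11 and 7.95 for Ddx58, 7.71 and 7.81 for Dhx58) lay nearer to the alone arrays. Ifi214, of the p200 family of DNA-binding proteins, stood at 6.41 and 6.58 alone and at 7.73 and 7.38 with neutrophils (1.06, SE 0.13, adjusted p = 0.0176). A second member of that family, Ifi205, fell by 0.75, from 6.60 and 6.68 to 6.07 and 5.70 (adjusted p = 0.0348), although it was dim and already at 6.25 and 6.26 with B cells. Another member, Ifi213, differed by 0.62 and did not pass (adjusted p = 0.060). The p200 genes are close paralogues, so probes may be shared among them. Eif2ak2 (PKR) differed by 0.58, Cgas by 0.34, Sting1 by 0.16 and Tlr9 by 0.08, and none of these 4 passed (adjusted p = 0.068, 0.183, 0.443 and 0.638).

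Antiviral effector genes divided. Of 43 measured 4 rose, 31 were positive and the median was 0.16. Ifi27, a small interferon-induced membrane protein, was at 8.17 and 8.12 in cells alone, at 8.18 and 7.95 beside B cells, and at 9.28 and 9.40 beside neutrophils (1.20, SE 0.11, adjusted p = 0.00741). Cmpk2, a mitochondrial nucleotide kinase, stood at 7.85 and 7.86 alone and at 8.76 and 8.71 with neutrophils (0.88, SE 0.09, adjusted p = 0.00944). For Ifi27 the B-cell arrays overlapped the alone arrays, and for Cmpk2 both B-cell arrays (7.99 ± 0.02, mean ± SD, n = 2) lay slightly above both alone arrays. Xaf1, an interferon-induced antagonist of the apoptosis inhibitor XIAP, stood at 8.05 and 8.14 alone and 8.98 and 8.69 with neutrophils (adjusted p = 0.0281), and Mx1, a dynamin-like antiviral GTPase, at 5.89 and 6.13 against 6.57 and 6.72 (adjusted p = 0.0376). Parp14, an ADP-ribosyltransferase of the ISG15 and PARP list, rose by 0.57 (adjusted p = 0.0490), and all 9 measured members of that list were positive with a median of 0.29. Helz2, an interferon-induced helicase that was in none of the lists, also rose, from 8.69 and 8.78 to 9.30 and 9.24 (adjusted p = 0.0417).

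Several of the most used interferon reporters did not follow. Ifit1 stood at 7.16 ± 0.02 alone and 6.91 ± 0.12 with neutrophils (mean ± SD, n = 2), and Ifit3 at 7.81 and 7.82 against 7.66 and 7.21. The neutrophil arrays of both were the lower ones, with differences of -0.25 and -0.38 that did not pass (adjusted p = 0.247 and 0.345). Rsad2 (viperin) differed by -0.12 (adjusted p = 0.623), Ifit2 by 0.13 (adjusted p = 0.549) and Cxcl10 by 0.14 (adjusted p = 0.439). Isg15 stood at 6.15 and 6.36 alone and at 6.49 and 6.74 with neutrophils (0.36, adjusted p = 0.185), and its B-cell arrays, at 6.56 and 6.53, lay between those 2 neutrophil values. GTPases that respond mainly to interferon gamma did not rise: of 14 measured, 0 rose, with 3 higher at an unadjusted p below 0.05, and Iigp1 fell by 0.78 (adjusted p = 0.0264). Iigp1 was dim, at 6.66 and 6.57 alone and 5.79 and 5.87 with neutrophils. MHC class I genes were positive in 18 of 18, with a median of 0.10 that lay below the 0.13 of the brightest class, and none passed (3 higher at an unadjusted p below 0.05). Under the receptor covariate that median turned to -0.12.

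Over the 5 lists of interferon signalling and interferon-induced genes together, 95 genes were measured, 76 were positive, 14 rose, 1 fell and the median was 0.18. The share that rose is to be read against the 0.149% of all genes that rose. Their mean level was 7.69 and 7.71 on the alone arrays, 7.74 and 7.69 on the B-cell arrays, and 7.95 and 7.93 on the neutrophil arrays. Only the neutrophil arrays stood apart. With the receptor covariate 56 of the 95 were positive, the median was 0.09 and none was called. The 14 became 0 when either alone array was left out, 6 without neutrophil array 1, 2 without neutrophil array 2, and 22 when 1 or both B-cell arrays were left out.

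**Figure D2:**
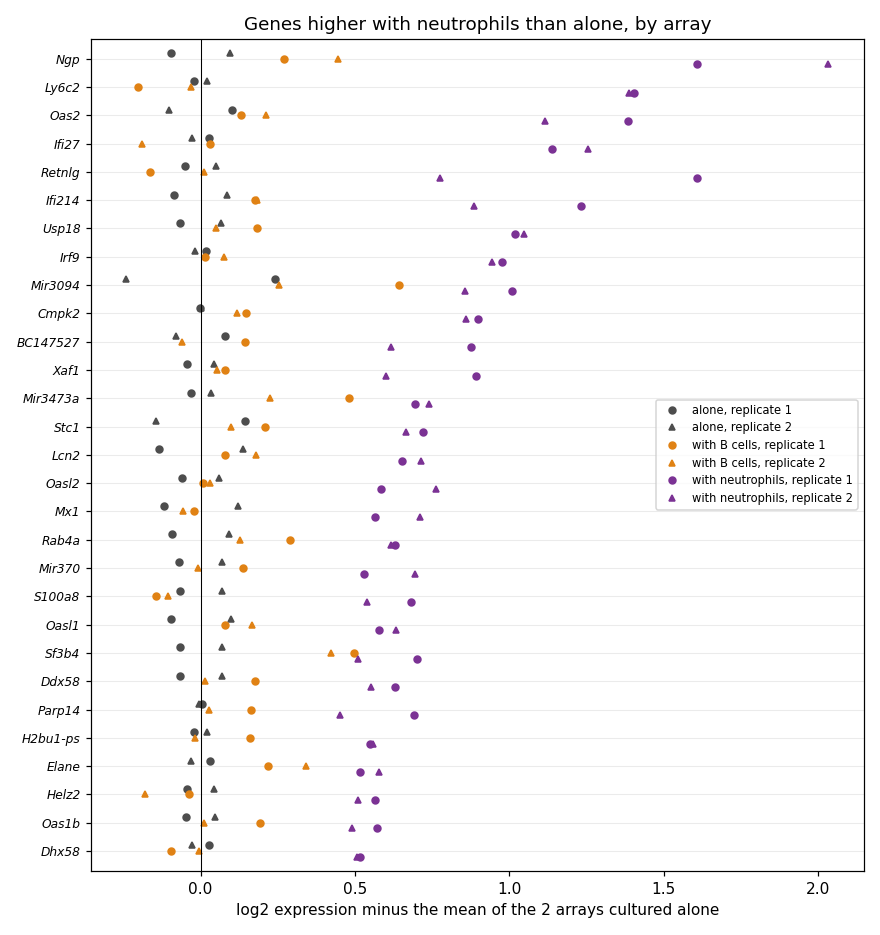
Log2 level minus the mean of the alone arrays (horizontal axis) for each of the 29 genes that rose (rows), with 6 points per gene, coloured by group and shaped by replicate number. Oas2, Ifi27, Usp18, Irf9 and Cmpk2 sit high on the 2 neutrophil arrays, while the B-cell arrays lie nearer to the alone arrays, and Retnlg spreads from 6.49 to 7.32 between its neutrophil arrays.

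The promoters of 5 of these genes are shown because they set a gene that rose beside interferon-induced genes that did not. Each line runs 5′ to 3′ on the gene's own strand over 160 bases up to the base before the annotated start (RefSeq, GRCm38.p6), with capitals marking matches to the ISRE, read as GAAA, any 2 bases and GAAA, or on the other strand TTTC, any 2 bases and TTTC. The regions are chr1:173535958-173536117 (minus strand) for Ifi214, chr4:156200819-156200978 (minus) for Isg15, chr19:34640729-34640888 (plus) for Ifit1, chr19:34583369-34583528 (plus) for Ifit3 and chr12:26456453-26456612 (minus) for Rsad2. Overlapping matches were merged into 1 run of capitals.
Ifi214: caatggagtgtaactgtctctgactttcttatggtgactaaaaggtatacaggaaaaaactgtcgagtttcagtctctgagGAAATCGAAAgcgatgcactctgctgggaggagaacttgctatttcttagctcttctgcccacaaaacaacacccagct
Isg15: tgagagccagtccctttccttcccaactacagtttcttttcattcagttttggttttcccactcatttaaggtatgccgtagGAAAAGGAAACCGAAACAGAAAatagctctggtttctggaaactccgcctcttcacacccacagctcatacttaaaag
Ifit1: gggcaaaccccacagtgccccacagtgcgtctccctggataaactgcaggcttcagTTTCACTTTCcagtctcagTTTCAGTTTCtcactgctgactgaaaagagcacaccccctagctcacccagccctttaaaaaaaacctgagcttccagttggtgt
Ifit3: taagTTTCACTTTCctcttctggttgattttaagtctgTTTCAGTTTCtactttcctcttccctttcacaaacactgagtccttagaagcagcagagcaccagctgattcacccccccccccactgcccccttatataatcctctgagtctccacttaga
Rsad2: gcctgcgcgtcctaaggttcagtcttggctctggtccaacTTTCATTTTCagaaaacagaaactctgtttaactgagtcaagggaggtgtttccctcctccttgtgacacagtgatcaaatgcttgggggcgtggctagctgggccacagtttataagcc
In this set Ifi214, with 1 match, rose, while Isg15 with 3 matches, Ifit1 and Ifit3 with 2 each and Rsad2 with 1 did not pass. In the 250 bases before the start, a match on either strand was present in 577 of 16990 genes with a promoter in the table (3.40%). It was present in 30 of 78 genes of the interferon lists (38.5%) and in 28 of the 70 of these that did not pass (40.0%). Of the 29 genes that rose, only 15 had a promoter in the table, and 2 of these held a match (Ifi214 and BC147527). Irf9, Usp18 and Oas2 had no promoter there, so they were not counted. Of 59 genes that fell with a promoter in the table, 3 held an ISRE match (5.08%). The GAS element TTCNNNGAA binds STAT dimers and reads the same on both strands. A match to it was present in 0 of those 15 that rose and in 7.82% of all, and 15 promoters are too few to tell these shares apart. It was present in 9 of the 78 genes of the interferon lists (11.5%) and in 4 of the 59 that fell (6.78%). These are counts of letters in a fixed window, not of bound sites.

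Several transcripts of neutrophil granules also rose. Ngp, neutrophilic granule protein, read 5.57 and 5.76 in cells alone, 5.93 and 6.11 after B cells, and 7.27 and 7.70 after neutrophils, the largest rise of the comparison (1.82, SE 0.15, adjusted p = 0.00498). Retnlg, resistin-like gamma, stood at 5.66 and 5.76 alone and at 7.32 and 6.49 with neutrophils (1.19, SE 0.23, adjusted p = 0.0459). Its neutrophil arrays differed from each other by about as much as the lower of them differed from the alone arrays. Lcn2, which binds bacterial siderophores, rose by 0.68 (6.76 and 7.04 alone, 7.55 and 7.61 with neutrophils; adjusted p = 0.0323). S100a8, a subunit of calprotectin, rose by 0.61 (adjusted p = 0.0321), and Elane, neutrophil elastase, by 0.55 (adjusted p = 0.0373). These were 5 of 31 measured granule genes, of which 24 were positive with a median of 0.15. On the alone and B-cell arrays Ngp, Retnlg and S100a8 were dim, under the lower quartile, so their folds are not exact. The 5 calls became 0 without alone array 1, 1 without alone array 2 or neutrophil array 1, and 2 without neutrophil array 2. In sorted bulk samples a change in the number of cells of a type and a change in RNA per cell cannot be told apart.

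The other 26 measured granule genes did not pass, although over the whole list 10 were higher at an unadjusted p below 0.05, and 14 had both neutrophil arrays above both alone arrays (45.2%, against 39.4% of all genes). S100a9, the partner subunit of S100a8, stood at 7.14 and 7.59 alone and at 7.47 and 7.56 with neutrophils, so the groups overlapped (adjusted p = 0.625). Camp, cathelicidin, stood at 5.81 and 5.79 alone and 5.95 and 6.47 with neutrophils (0.40, adjusted p = 0.250). Ltf, Mpo and Lyz2 differed by 0.23, 0.24 and 0.38, Mmp9 by 0.58 and Stfa1 by -0.77, and none of them passed. Of 42 surface proteins and transcription factors of neutrophils 1 rose, 1 fell and 25 were positive, with a median of 0.03 near that of all genes. The surface markers Ly6g, Csf3r and Itgam differed by 0.20, 0.13 and 0.03 and did not pass (adjusted p = 0.368, 0.487 and 0.887). Ly6c2, a surface protein of monocytes, neutrophils and some lymphocytes, was the member that rose. The alone arrays read 5.71 and 5.75, the B-cell arrays 5.53 and 5.70, and the neutrophil arrays 7.14 and 7.12 (1.40, SE 0.10, adjusted p = 0.00226), and it was called in each fit that left out 1 array. Its close paralogue Ly6c1 had its own probe set and differed by 0.10 (adjusted p = 0.665). Clec5a, a lectin of myeloid cells, fell by 0.58 (adjusted p = 0.0409).

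Over the 31 granule genes the mean level was 6.64 and 6.68 on the alone arrays, 6.67 and 6.78 on the B-cell arrays, and 6.83 and 6.93 on the neutrophil arrays. These values moved in the same direction as the interferon lists, and the part that residual neutrophils or their RNA had in either group of genes was not tested. No gene in the marker lists of other cell types rose, although Ly6c2, listed with the neutrophil genes, is also a surface protein of monocytes. Of 19 monocyte and macrophage markers 6 were positive and the median was -0.08, and 18 T and NK cell, 11 dendritic cell and 16 eosinophil, basophil and mast cell markers had medians of -0.04, 0.00 and -0.06. Under the receptor covariate the monocyte and macrophage median turned to 0.14. In that fit the granule genes had a median of 0.26, with 25 of 31 positive and none called. At the reported setting 2 of the monocyte, 1 of the T and NK cell, 1 of the dendritic cell and 0 of the eosinophil, basophil and mast cell markers were higher at an unadjusted p below 0.05. The identity genes of the myeloma cells differed little: Pax5 by 0.06, Irf4 by 0.13, Xbp1 by 0.14, Sdc1 (CD138) by 0.11, Prdm1 by 0.22 and Tnfrsf17 (BCMA) by -0.21, none of which passed. Pax5 is normally shut off in plasma cells, and its level in DP42 cells was above the upper quartile on every array.

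Outside these groups, 9 genes rose that were in none of the lists. Besides Helz2, they included Stc1, the secreted glycoprotein stanniocalcin, at 7.06 and 6.77 alone and 7.63 and 7.58 with neutrophils (0.69, adjusted p = 0.0332). Rab4a, a GTPase of endosome recycling, rose by 0.62 (adjusted p = 0.0349) but was dim, at 5.24 and 5.43 alone. Sf3b4, a subunit of the splicing factor SF3b, rose by 0.60 (adjusted p = 0.0383), with 6.40 and 6.54 on the alone arrays and 7.17 and 6.98 on the neutrophil arrays. B-cell co-culture gave 6.96 and 6.89. Its arrays with B cells lay nearer to the neutrophil arrays than to the alone arrays. BC147527 and the histone pseudogene H2bu1-ps rose by 0.75 and 0.55 (adjusted p = 0.0325 and 0.0401). The remaining 3 were the microRNA loci Mir3094, Mir3473a and Mir370, which rose by 0.93, 0.72 and 0.61 (adjusted p = 0.0467, 0.0281 and 0.0396). Mir3473a stood at 3.29 and 3.36 alone and at 4.02 and 4.06 with neutrophils, at the bottom of the range of the arrays.

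MicroRNAs are short RNAs that pair with messenger RNAs mainly through a seed, bases 2 to 8 from the 5′ end. Of 483 microRNA loci 3 rose (0.621%, against 0.149% of all genes) and 8 fell (1.66%, against 0.461%), with a median of -0.02, and 217 were positive. Only 107 of the 483 were at or above the median brightness. In the dimmest class, 61 of 4881 genes fell and 10 rose. The mature sequences of loci that changed are shown because a shared seed would make loci act on the same messages. They are from RefSeq (GRCm38.p6), 5′ to 3′, with the seed in capitals. The first 3 lines belong to loci that rose and the others to loci that fell.
miR-3094-5p: uGUUGGGGacauuuuuaaagc
miR-3473a: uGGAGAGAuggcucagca
miR-370-3p: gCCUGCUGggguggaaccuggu
miR-3475-5p: aAAUCAUGuacccccacagagg
miR-3475-3p: uCUGGAGGcacaugguuugaa
miR-101c: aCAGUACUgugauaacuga
miR-680: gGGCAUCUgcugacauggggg
let-7c-5p: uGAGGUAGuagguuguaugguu
miR-3961: uGCCCUCAgcucaguugga
Mature sequences were matched for 10 of the 11 loci, and their 16 mature forms had 16 different seeds. The probe sets read RNA from the locus and do not separate the precursor from the mature form. Mir101c was at 9.98 and 9.65 in cells alone, at 8.10 and 9.75 beside B cells, and at 7.34 and 6.05 beside neutrophils (-3.12, adjusted p = 0.0323). Mir680-1 was at 10.23 and 9.70 in cells alone, at 9.06 and 10.47 beside B cells, and at 8.17 and 7.37 beside neutrophils (-2.20, adjusted p = 0.0470). For both, the first B-cell array was low and the second was at the level of the alone arrays. Mir3475 stood at 6.97 and 7.15 alone and at 5.79 and 5.48 with neutrophils (-1.43, SE 0.16, adjusted p = 0.0123), the lowest adjusted p of the genes that fell. Mir3961 and Mir467e fell with differences of -1.20 and -1.28, and Mirlet7c-1 fell by 0.99, from 4.87 and 4.40 to 3.68 and 3.61.

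The falls of the largest size were in multicopy genes of the sex chromosomes, microRNA loci and other transcripts. Srsy, a Y-linked multicopy gene of spermatids, read 10.35 and 10.26 in cells alone, 9.09 and 10.63 beside B cells, and 7.36 and 6.26 beside neutrophils (-3.50, SE 0.47, adjusted p = 0.0214). Sly, a second Y-linked spermatid gene, read 6.99 and 6.63 in cells alone, 5.56 and 6.99 beside B cells, and 4.17 and 3.12 beside neutrophils (-3.16, adjusted p = 0.0227). The X-linked spermatid genes Astx5 and Srsx had differences of -3.15 and -2.10, and Btbd35f1 fell by 2.11. In these genes both neutrophil arrays were low and apart from each other, and the first B-cell array lay between. These families consist of near-identical copies, so their values cannot be assigned to 1 locus. The secretoglobins Scgb2b20 and Scgb2b7 fell, with differences of -1.88 and -1.80. So did the urinary protein genes Mup-ps12 and Mup3 (-1.85 and -1.39) and the placental prolactin relative Prl2c5 (5.80 and 5.95 alone, 4.77 and 4.76 with neutrophils). Pla2g10os, a transcript opposite a phospholipase gene, read 9.12 and 8.58 in cells alone, 6.72 and 8.80 beside B cells, and 5.67 and 5.67 beside neutrophils (-3.18, adjusted p = 0.0323). Snhg14, a host transcript of small nucleolar RNAs, fell by 1.33. BC061237, Spopfm2 and Tmem45a2 fell, with differences of -2.30, -1.41 and -1.03.

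**Figure D3:**
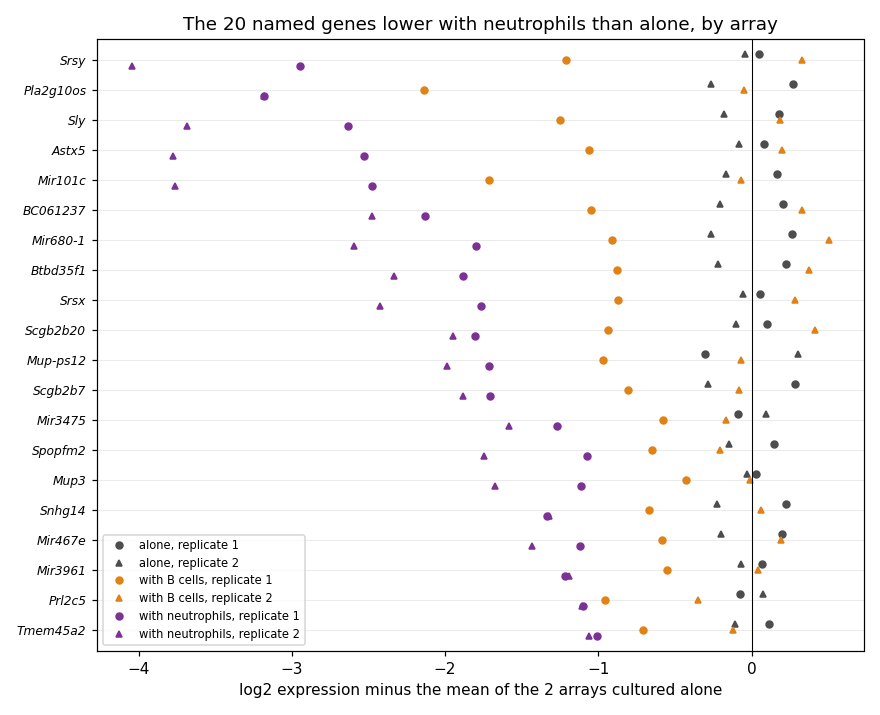
Log2 level minus the mean of the alone arrays (horizontal axis) for genes that fell (rows), with 6 points per gene, coloured by group and shaped by replicate number. The neutrophil arrays lie lowest for the genes shown, and for Srsy, Sly and Mir101c the first B-cell array (levels of 9.09, 5.56 and 8.10) lies between them and the second (10.63, 6.99 and 9.75).

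Among genes with a known part in immune cells, 5 that fell are given here, all but Lepr chosen after their values were seen. Ighg3, the constant region of IgG3, read 7.90 and 7.72 in cells alone, 6.37 and 7.48 beside B cells, and 5.61 and 5.91 beside neutrophils (-2.05, adjusted p = 0.0236). Ighm, the constant region of IgM, stood between 13.27 and 13.35 on all 6 arrays, with a difference of -0.01. That is close to the brightest probe set of each array (13.93 to 14.03), where a change could be hidden. Stat4, which carries signals of interleukin-12, stood at 6.36 and 6.37 alone and 5.66 and 5.44 with neutrophils (-0.82, adjusted p = 0.0348). Klrc1, the NK cell receptor NKG2A, Lepr, the leptin receptor, and Gpr15, a homing receptor of T cells, fell with differences of -0.79, -0.68 and -0.54. Of these 5 genes, each had both neutrophil arrays below the lower quartile of genes.

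Most of the genes that fell were at the bottom of the range. On both neutrophil arrays 63 of the 90 lay below the lower quartile, and 37 did so on both alone arrays as well. Names ending in Rik, given to cloned transcripts, made up 19 of the 90. In 82 of the 90 the first B-cell array was lower than the second, against 44.4% of all 19528 genes. The mean of 1394 olfactory and vomeronasal receptor genes, which were not members, moved in the same way: 5.56 and 5.51 on the alone arrays, 5.27 and 5.59 on the B-cell arrays, and 5.13 and 5.05 on the neutrophil arrays. With that mean as a covariate in limma no gene rose or fell, with 530 higher and 447 lower at an unadjusted p below 0.05. Both neutrophil arrays lay below both alone arrays in that mean, so the covariate largely overlaps with the comparison. Within groups it varied most between the B-cell arrays. The loss of calls in this fit therefore does not separate the shift from the comparison. All 29 genes that rose stayed positive in that fit and 89 of the 90 that fell stayed negative, the exception being Mir680-1, at 0.03. The part of this array-wide shift in the fall of single genes was not tested.

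Gene families that are usually silent in plasma cells had mostly negative differences. Of 38 bitter and sweet taste receptors 2 were positive with a median of -0.23, and of 55 defensins 6 were positive with a median of -0.20. Of 54 serpins 13 were positive (median -0.17), and of 15 trace amine receptors 4 were positive (median -0.27). The numbers that passed were 1, 2, 1 and 1, all lower (2.63%, 3.64%, 1.85% and 6.67%, against 0.461% of all genes). Few members were at or above the median brightness (0, 4, 4 and 0). In the dimmest class, 61 of 4881 genes fell and 28.3% were positive. Keratins (21 of 53 positive, median -0.06, 0 called) and cytochrome P450 genes (31 of 98, median -0.08, 2 lower) were less negative. By contrast, the 86 cytosolic ribosomal protein genes had a median of 0.00 and 43 were positive. The H/ACA small nucleolar RNAs were positive in 4 of 26, with a median of -0.17, although they were bright, at 10.47 and 10.60 alone and 10.45 and 10.29 with neutrophils. Their B-cell arrays, at 10.18 and 10.26, were lower still.

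**Figure D4:**
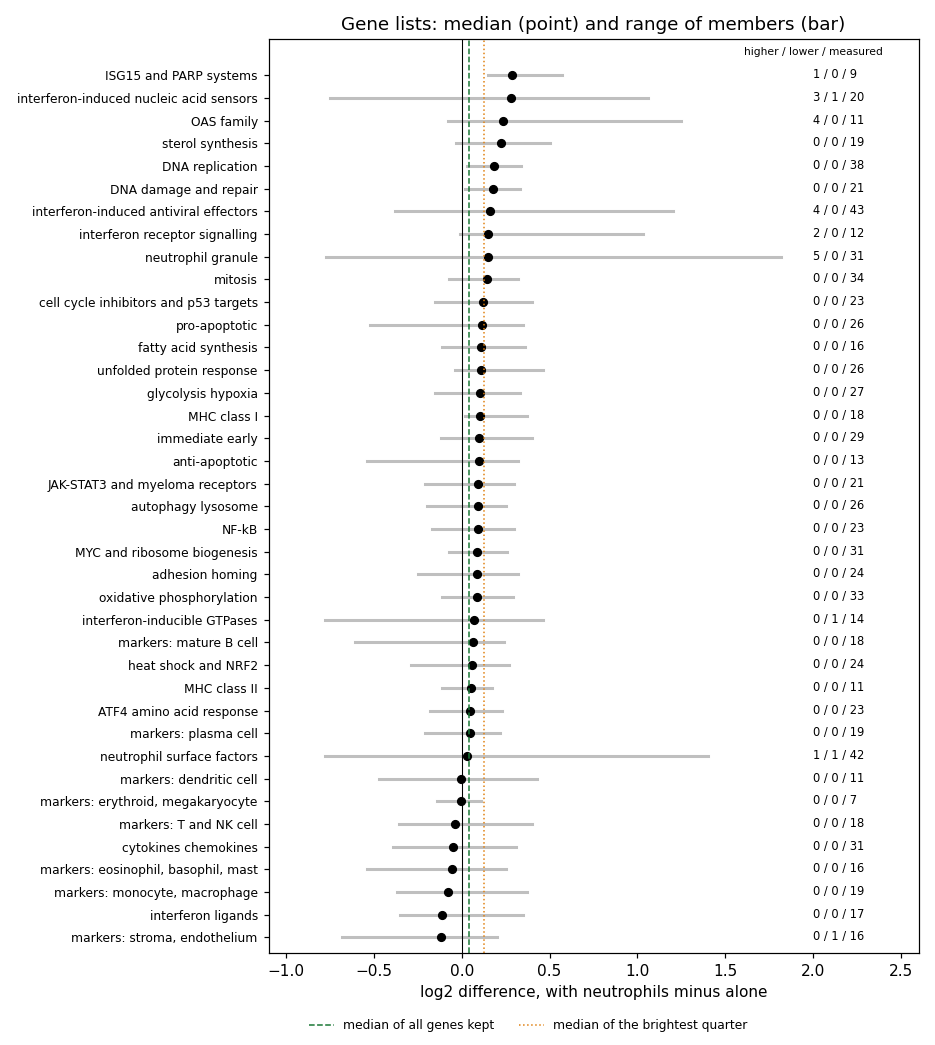
Median log2 difference (point) and range (bar) of the measured members of each of 39 gene lists, with the numbers that rose, fell and were measured at the right, and dashed and dotted lines at the medians of all genes and of the brightest class (0.04 and 0.13). The ISG15 and PARP, sensor and OAS lists have the highest medians (0.29, 0.28 and 0.23), and most metabolic and growth lists lie between the lines.

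Lipid, stress and growth genes were examined because myeloma cells depend on secretion and on signals from marrow cells. Enzymes of sterol synthesis were positive in 18 of 19, with a median of 0.22, above that of the brightest class, but none passed (11 higher at an unadjusted p below 0.05 in limma). Fdft1, squalene synthase, stood at 9.66 and 9.73 alone and 10.17 and 10.21 with neutrophils (0.50, adjusted p = 0.111), and Hmgcs1 at 9.73 and 9.80 against 10.19 and 10.22 (0.44, adjusted p = 0.105). The neutrophil arrays of both lay close together and above the alone arrays. The mean of the 19 genes was 9.30 and 9.32 on the alone arrays, 9.28 and 9.17 on the B-cell arrays, and 9.51 and 9.56 on the neutrophil arrays. With the receptor mean as a covariate the median of this list was 0.05. Dnajb9, a chaperone of the unfolded protein response, differed by 0.46 (adjusted p = 0.097), within a list of 26 in which 24 were positive, none passed (2 higher at an unadjusted p below 0.05) and the median was 0.11, which turned to -0.16 with the covariate.

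Genes of DNA replication were positive in 38 of 38, with non-overlapping arrays in 37. Over all 19528 genes, of every brightness, 39.4% had both neutrophil arrays above both alone arrays. All 38 were at or above the median brightness, and in the brightest class 91.9% of genes were positive with a median of 0.13. Their median was 0.18, and none passed (6 higher at an unadjusted p below 0.05). Mitosis and DNA repair lists had medians of 0.14 and 0.18, and none of their genes passed (3 and 4 higher at an unadjusted p below 0.05). The medians of these 3 lists turned under the receptor covariate, to -0.08, -0.08 and -0.11. Of the 31 lists with a positive median, 23 turned negative in that fit, and of the 8 with a negative median 5 turned positive. Cdc6 and Orc1, which license replication origins, differed by 0.34 and 0.32 (adjusted p = 0.173 and 0.157). The cyclins Ccnd1, Ccnd2 and Ccnd3 differed by 0.12, 0.05 and 0.17, Myc by 0.06 and the inhibitor Cdkn1a by 0.12.

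Survival and inflammatory genes showed no call. The anti-apoptotic Mcl1, Bcl2 and Bcl2l1 differed by 0.17, 0.01 and -0.04 and the pro-apoptotic Bcl2l11 (Bim) by 0.10, and none passed (adjusted p = 0.459, 0.959, 0.866 and 0.605). Of 31 cytokines and chemokines 12 were positive and the median was -0.05. Il6, a growth factor of myeloma cells, differed by -0.23 and Tnf by 0.29 (adjusted p = 0.311 and 0.235). Nfkbia, induced by NF-kB, differed by 0.06 (adjusted p = 0.785), and the 23 genes of that pathway had a median of 0.09. Dusp1, a phosphatase induced early by stress, stood at 7.85 and 7.83 alone and 8.21 and 8.26 with neutrophils (0.40, adjusted p = 0.093). Of the 39 lists, 30 held no gene that passed.

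The arrays with B cells show how far the changes are shared with the other co-culture, with the reservation that both contrasts use the same neutrophil arrays. For all 29 genes that rose, both neutrophil arrays lay above both B-cell arrays as well, as they did for 33.1% of all 19528 genes. The 29 were chosen for high values on those same neutrophil arrays, so this is a description only. Of them, 7 were also called against B cells. These 7 were all the genes called in that contrast (0.0358% of 19528), and none was called lower (1759 genes, 9.01%, were lower and 1758 higher at an unadjusted p below 0.05). Their differences from B-cell co-culture were 1.46 for Ngp, 1.51 for Ly6c2, 1.28 for Ifi27, 1.08 for Oas2, 0.92 for Usp18, 0.92 for Irf9 and 0.75 for Cmpk2. For 88 of the 90 genes that fell, both neutrophil arrays lay below both B-cell arrays (23.3% of all genes), the exceptions being Mir3098 and Mup20, and none of the 90 was called. They too were chosen on the neutrophil arrays. B-cell co-culture against culture alone gave no call in limma, with 299 genes higher (1.53%) and 322 lower (1.65%) at an unadjusted p below 0.05.

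**Figure D5:**
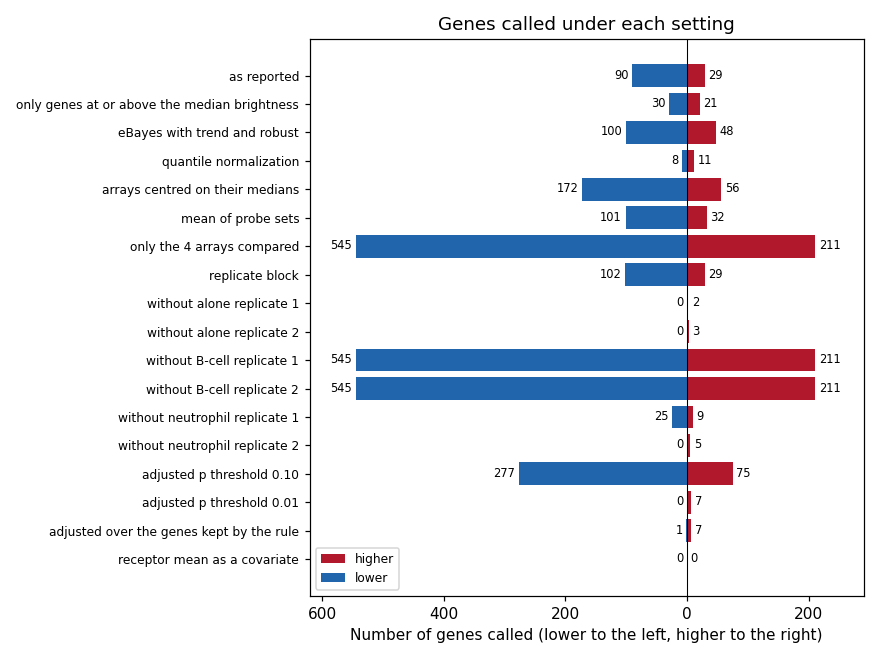
Number of genes called higher and lower with neutrophils against alone (horizontal axis) under each setting of the analysis (vertical axis). The reported 29 and 90 fall to 2 and 0 without alone array 1 and become 211 and 545 when 1 or both B-cell arrays are left out.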

How the data were processed

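The authors deposited log2 expression values per probe set, made with RMA (background subtraction, normalisation between arrays, probe summary), per the submitters' processing notes. The array model, build and software version are not given in the sources used here. Normalisation between arrays hides a change shared by most genes, and dim signals are compressed. GEO's platform annotation gave 1 gene for 23521 of the 41345 probe sets, several genes for 1814 and no name for 16010. The brightest probe set over 6 arrays was kept for 1082 genes with several.

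A linear model of group means over all 6 arrays was used (limma 3.58.1, R 4.3.3), with 3 residual degrees of freedom, a prior of 5.55, eBayes, two-sided tests and Benjamini-Hochberg adjustment over 22180 genes. The fit was tested on simulated data with independent noise on each array. No array-wide shift was simulated, so that test does not cover a difference that depends on brightness. The number of arrays limits the precision. The members and all 39 lists (922 symbols, 834 measured) were chosen with earlier results of these data known, so lists are described by counts and medians, with no test. Genes named are all that rose, the 20 that fell most (without Rik names and immunoglobulin segments), called members of each list and up to 4 others with the largest difference, and 43 fixed genes. Any others named were chosen after their values were seen. Alternatives were a brightness filter, other normalisation, centring, other eBayes settings, mean of probe sets, 4 arrays, leaving out single arrays, a replicate block, stricter and looser thresholds and the receptor mean as a covariate. Figures used matplotlib 3.10.9 (Python 3.11.15).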

Additional observations from a re-analysis of the deposited data

How the results depend on the processing

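The directions of the genes that rose and fell held under the alternatives run, except that Mir680-1 turned to 0.031 with the receptor mean as a covariate, but the counts moved. Against the reported 29 higher and 90 lower, there were 21 and 30 among the brighter genes (median level and up), 48 and 100 with trend and robust settings, 11 and 8 after quantile normalisation, 56 and 172 after centring on array medians, and 32 and 101 with the mean of probe sets. A fit of only 4 arrays gave 211 and 545, a threshold of 0.10 gave 75 and 277, and a threshold of 0.01 gave 7 and 0. Adjustment over the 19528 genes gave 7 and 1, and the receptor covariate gave 0 and 0. That covariate itself differed between the compared groups, so its counts do not separate it from the comparison. Leaving out 1 array gave 2 to 211 higher and 0 to 545 lower: 2 and 0 without alone array 1, 3 and 0 without alone array 2, 9 and 25 without neutrophil array 1, 5 and 0 without neutrophil array 2, and 211 and 545 when 1 or both B-cell arrays were left out. The lone array is then assumed to vary like the other groups. Where 0 fell in limma, 904, 874 and 821 genes were lower at an unadjusted p below 0.05 without alone array 1, alone array 2 and neutrophil array 2. With the replicate number as a block, 29 rose and 102 fell, of which 26 and 75 were genes reported above. Deviations of same-numbered arrays correlated at -0.07 (alone and B cell), 0.07 (alone and neutrophil) and -0.15 (B cell and neutrophil). These correlations do not show whether same-numbered arrays were handled together. The thresholds of 0.10 and 0.01 and the adjustment over 19528 genes reuse the reported p-values and change only the adjustment or the cutoff. The causes of the other changes in the counts were not tested. Genes below the lower quartile have no exact fold.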
